A study of Mus musculus with 20 samples.

Results

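The conjugation genes examined here are 33 mouse genes chosen by symbol, of 21900 protein-coding genes in a RefSeq table. They are 10 UDP-glucuronosyltransferase-type genes (8 of the Ugt2 and 2 of the Ugt3 family), 18 glutathione S-transferase genes, 3 cytosolic sulfotransferases and 2 methyltransferases. An H3K27ac or H3K4me1 interval was assigned to a gene when its midpoint lay in, or within 10 kb of, the gene body. The 33 genes thereby held 173 of 65776 consensus H3K27ac intervals and 241 of 103014 consensus H3K4me1 intervals. Of the 173 H3K27ac intervals, 34 were shared by more than 1 of the genes, because paralogs lie side by side.

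Livers came from 9-week-old male C57BL/6 mice on standard chow that had all been fasted for 24 h, so no fed liver served as a reference. The genotypes were WT, Cpt2 L-/- (Cpt2 removed in the liver, called Cpt2 KO), Ppara -/- (called Ppara KO) and Cpt2 L-/- ; Ppara -/- (double knockout, DKO). The promoter that drives deletion of Cpt2 in the liver is not given in the sources used here. H3K27ac and H3K4me1, acetylation and methylation marks of histone H3 found at active enhancers and, for H3K27ac, active promoters, were measured by chromatin immunoprecipitation and sequencing (ChIP-seq) in 2 livers of each genotype. H3K9ac, a second acetylation mark of active chromatin, was measured in 1 WT and 1 Cpt2 KO liver.

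Conjugation is the phase of drug and metabolite disposal in which a polar group is attached to a compound so that it can leave in bile or urine. UDP-glucuronosyltransferases attach a sugar from a nucleotide sugar, glutathione S-transferases (GSTs) attach glutathione to electrophiles, sulfotransferases attach sulfate, and methyltransferases attach a methyl group. The liver is the main site of this work. Ppara is the fatty acid-binding nuclear receptor of the fasting response, and Cpt2 is a mitochondrial enzyme that long-chain fatty acids need in order to be oxidised.

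Promoter sequences were read for the genes whose intervals the results below turn on, so that each signal can be set against the DNA where transcription starts. RefSeq (GRCm38.p6, the assembly that mm10 names) had an entry for 29 of the 33 genes, with 38 start sites, and Ugt3a2, Gsta4, Gstt2 and Nnmt had none. Each run below is the 250 bases before the start, 5′ to 3′ on the gene's strand. Capitals mark TGACNNNGC, the core of the antioxidant response element bound by Nrf2, in Gsta3 and Mgst1 (in Mgst1 as its reverse complement), and GCGTG or its reverse complement, the core bound by the aryl hydrocarbon receptor, in Gstp1, Sult1b1 and Tpmt. All-lower-case runs held neither core.
Ugt3a1, mm10 chr15:9279579-9279828, plus strand: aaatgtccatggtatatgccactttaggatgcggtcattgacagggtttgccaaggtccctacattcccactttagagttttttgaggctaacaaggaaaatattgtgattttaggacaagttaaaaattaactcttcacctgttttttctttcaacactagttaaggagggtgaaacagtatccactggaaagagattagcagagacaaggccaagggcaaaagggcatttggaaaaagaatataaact
Ugt2b35, mm10 chr5:87000610-87000859, plus strand: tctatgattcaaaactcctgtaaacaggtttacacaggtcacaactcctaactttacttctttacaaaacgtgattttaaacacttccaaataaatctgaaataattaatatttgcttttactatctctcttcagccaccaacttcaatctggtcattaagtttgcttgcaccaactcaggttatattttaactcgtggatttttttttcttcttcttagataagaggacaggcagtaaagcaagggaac
Mgst1, mm10 chr6:138140277-138140526, plus strand: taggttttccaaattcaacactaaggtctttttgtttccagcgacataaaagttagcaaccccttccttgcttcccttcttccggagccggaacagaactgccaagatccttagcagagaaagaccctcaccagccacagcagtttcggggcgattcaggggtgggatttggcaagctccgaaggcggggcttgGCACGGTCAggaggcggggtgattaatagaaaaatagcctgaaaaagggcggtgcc
Gsta3, mm10 chr1:21240335-21240584, plus strand: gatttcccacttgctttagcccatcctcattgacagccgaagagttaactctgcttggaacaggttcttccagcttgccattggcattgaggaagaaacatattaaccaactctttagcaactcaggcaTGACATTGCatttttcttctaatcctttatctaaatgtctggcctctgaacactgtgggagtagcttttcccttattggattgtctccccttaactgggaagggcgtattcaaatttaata
Gstp1, mm10 chr19:4037913-4038162, minus strand: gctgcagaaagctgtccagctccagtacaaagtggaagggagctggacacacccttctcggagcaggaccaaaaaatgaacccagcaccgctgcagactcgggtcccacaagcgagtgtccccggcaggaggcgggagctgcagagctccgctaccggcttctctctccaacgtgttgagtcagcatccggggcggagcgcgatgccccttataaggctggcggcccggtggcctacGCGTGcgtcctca
Gstp2, mm10 chr19:4042222-4042471, minus strand: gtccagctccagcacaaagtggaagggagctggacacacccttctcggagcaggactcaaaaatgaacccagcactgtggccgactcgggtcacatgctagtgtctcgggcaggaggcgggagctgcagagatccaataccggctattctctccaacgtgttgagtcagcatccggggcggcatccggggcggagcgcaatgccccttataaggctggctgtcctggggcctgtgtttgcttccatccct
Sult1b1, mm10 chr5:87536223-87536472, minus strand: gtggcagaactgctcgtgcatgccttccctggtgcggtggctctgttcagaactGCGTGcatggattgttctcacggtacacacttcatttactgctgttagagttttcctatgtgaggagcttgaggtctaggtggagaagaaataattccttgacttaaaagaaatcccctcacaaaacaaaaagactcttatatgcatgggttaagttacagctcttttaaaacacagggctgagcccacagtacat
Tpmt, mm10 chr13:47043218-47043467, minus strand: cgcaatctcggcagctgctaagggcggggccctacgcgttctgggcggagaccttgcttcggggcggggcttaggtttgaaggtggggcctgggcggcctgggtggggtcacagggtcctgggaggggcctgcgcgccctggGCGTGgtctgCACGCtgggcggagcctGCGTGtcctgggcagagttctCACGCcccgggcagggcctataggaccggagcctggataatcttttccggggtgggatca

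Both strands were searched in all 32851 RefSeq mouse start windows, each of 300 bases: the 250 upstream bases and 50 bases after them. TGACNNNGC was present in 3 of the 38 conjugation-gene windows (7.89%), those of Gsta3, Gstm7 and Mgst1, against 12.4% of all windows. GCGTG was present in 7 of the 38 (18.4%), at Gsta2, Gstm1, Gstp1, Sult1b1, Sult1d1 and Tpmt, against 32.4% of all windows, and the Tpmt window held 4 matches. A direct repeat of AGGNCA with 1 base between the copies, the type of site bound by Ppara, was in none of the 38 and in 0.381% of all windows. The same repeat with 4 bases between, the type bound by Car, was in none of the 38 and in 0.253%. A match is only a description of these letters. The printed Gstp1 and Gstp2 runs were 78.5% identical over aligned positions, Ugt2b37 and Ugt2b38 were 85.2% identical and Ugt2b5 and Ugt2b38 81.5%. Reads from similar copies may be placed on the wrong gene. Whether this affected values between Gstp1 and Gstp2 or among Ugt2b5, Ugt2b37 and Ugt2b38 was not tested. The 250-base upstream runs of the Gstm genes were 43.5% to 58.1% identical, and sequence beyond these runs was not compared.

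The measure is the authors' fold enrichment of a peak over pooled input, and its log2 value was centred on the median of each library. Folds of single livers, and orders of livers read from them, are given before centring unless centring is named. Differences and their p-values are after centring. The 8 H3K27ac libraries held 44454 to 48929 peaks covering 42.0 to 47.8 Mb with median folds of 6.69 to 8.21, and the 8 H3K4me1 libraries held 61189 to 72151 peaks covering 38.8 to 53.5 Mb. The smallest peak width, which tracks the caller's estimate of fragment length, was 198 to 210 bases in the Cpt2-intact and 217 to 223 bases in the Cpt2-null H3K27ac libraries, so it cannot be told apart from the Cpt2 state. In H3K4me1 it split the libraries otherwise, with 196 to 200 bases in both WT livers, Cpt2 KO replicate 2 and Ppara KO replicate 1, and 210 to 221 bases in the other 4. Animal numbers in the peak names were 9548 to 9589 in the Ppara-intact and 6833 to 6848 in the Ppara-null livers. What this numbering stands for is not given, and it cannot be told apart from the Ppara state. All 6 hepatocyte markers had an H3K27ac peak in every library, as the liver label requires. Their level was 0.05 to 0.30 for WT, −0.27 to −0.13 for Cpt2 KO and 0.28 to 0.32 for both Ppara KO and DKO, their median Ppara difference was 0.30, and Serpina1c was lower without Cpt2 (−0.74, adjusted p = 0.0239). Of other cells, Marco (Kupffer), Col1a1 (stellate), Krt19, Krt7, Epcam and Spp1 (bile duct) and Cd3e (lymphocyte) had no peak in any library. Of the 6 Kupffer markers, 2 to 5 had a peak per library, and the level of the 2 tested (Clec4f and Csf1r) was −0.90 to −0.48 for WT, −0.37 to −0.23 for Cpt2 KO, −0.57 to −0.42 for Ppara KO and 0.07 to 0.10 for DKO on the centred log2 scale. All 5 endothelial markers had a peak in every library, with levels of −0.51 to −0.19 for WT, −0.12 to −0.07 for Cpt2 KO, −0.29 to −0.10 for Ppara KO and −0.29 to −0.01 for DKO. The part of these markers in the results was not tested. In bulk liver, fewer cells of a type and less signal per cell cannot be told apart.

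Most of the conjugation genes carried H3K27ac in every liver. Of the 173 intervals, 56 had a peak in every library, lay at 28 of the 33 genes and entered the tests. Another 53 intervals were called in 1 library only. The strongest WT signal of each family was highest at Gstz1 (chr12:87153546-87159894, folds 30.0 and 31.7 in the WT livers), the maleylacetoacetate isomerase of tyrosine breakdown. Nnmt, the nicotinamide N-methyltransferase, followed with a WT mean of 28.5 (chr9:48602510-48608086), and the interval in Gstp1 had 22.7 (chr19:4035673-4037066). Sult1a1, the main phenol sulfotransferase, had 16.3, Gsta2 15.8, Ugt2a3 15.1, an interval of Gstt3 that covers its neighbour Ddt 14.8, Gstm1 10.7 and Ugt3a1 10.6. These are folds over input, not expression, and they were not scaled for length. They describe an order without a test, and the WT values of neighbours in it such as Sult1a1, Gsta2 and Ugt2a3 lay within each other's range.

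**Figure D1:**
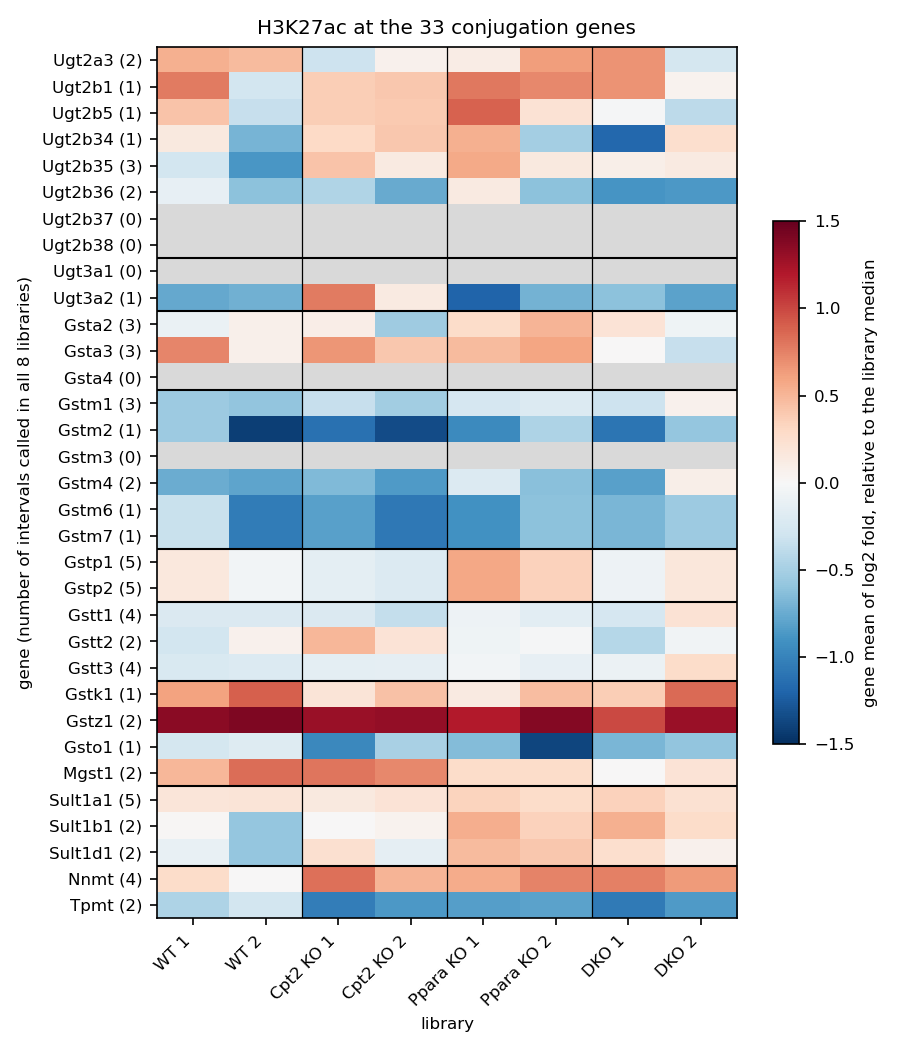
Mean centred log2 H3K27ac fold (colour, 0 = library median) of the 33 conjugation genes (rows, with the number of intervals called in all 8 libraries in brackets) in 8 livers (columns); grey marks genes with no such interval. Gstz1 is high in every liver, the GST mu genes lie below the library median in nearly all, and Ugt3a2 stands out in both Cpt2 KO livers.

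Of the 33 genes, 5 had no H3K27ac interval called in every library and are described by their calls only. Ugt2b38 had no interval in either mark, Ugt2b37 had 1, called in Cpt2 KO replicate 1 and DKO replicate 1, and the best Gsta4 interval was called in 6 libraries. Gstm3 had an interval at chr3:107964074-107965884 called in 7 libraries with folds of 7.40 to 20.8, all except WT replicate 1. The fifth, Ugt3a1, is described next. A peak that was not called lay below the caller's threshold (the smallest fold in any list was 2.23 to 2.50) and is not shown to be absent.

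Loss of Ppara was accompanied by loss of called acetylation at the start of Ugt3a1. Ugt3a1 and its neighbour Ugt3a2 encode glycosyltransferases of a small family that uses other sugars than glucuronic acid. The interval over the Ugt3a1 start (chr15:9278720-9280966, which contains the whole promoter run printed above) had folds of 11.8 and 9.40 in WT and 14.4 and 14.4 in Cpt2 KO, and was not called in any of the 4 Ppara-null livers. A second interval inside the gene (chr15:9306145-9306950) had 7.5 and 5.65 in WT and 20.1 and 13.0 in Cpt2 KO, was called with 5.38 in DKO replicate 1 and was not called in the other 3 Ppara-null livers. Over its 6 intervals, Ugt3a1 had 5 and 3 calls in the WT livers, 3 and 3 with Cpt2 KO, 0 and 0 with Ppara KO and 1 and 0 with DKO. The groups of Ppara state did not overlap in these counts, and the share of all genes that separate in this way was not counted. H3K4me1 was arranged in the same way, with 9 and 6 of 10 intervals called for WT, 4 and 5 for Cpt2 KO, 0 and 0 for Ppara KO and 1 and 0 for DKO. The H3K4me1 interval upstream of the start (chr15:9277113-9277511) had folds of 6.0, 6.28, 6.80 and 6.62 in the 4 Ppara-intact livers and was called in none of the Ppara-null livers. With uncalled peaks these intervals entered no fit, and the difference has no p-value. Calls in at least 3 of 4 Ppara-intact livers and no Ppara-null liver occurred at 1.73% of all H3K27ac and 2.84% of all H3K4me1 intervals.

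Ugt3a2 had 1 tested interval (chr15:9334741-9337301), which spans the edge of its gene body (chr15:9335551-9370955). Its folds were 5.82 and 6.91 for the WT livers, 22.3 and 13.0 for Cpt2 KO, 4.36 and 6.75 for Ppara KO and 8.0 and 8.02 for DKO. Both Cpt2 KO livers lay above the other 6. After centring, those 6 overlapped, with −0.77 and −0.72 for WT, −1.20 and −0.71 for Ppara KO and −0.61 and −0.80 for DKO. Ugt3a2 was higher in Cpt2 KO than in WT (log2 difference 1.20, adjusted p = 0.0193), a call lost without WT replicate 2 (0.0861) or Cpt2 KO replicate 1 (0.198). Across both Ppara states the Cpt2-null livers were higher by 0.73 ± 0.21 (SE, adjusted p = 0.0356), kept in 2 of 8 fits that left out 1 library (lost at 0.0628 to 0.158). The Ppara-null livers differed by −0.69 ± 0.21 (adjusted p = 0.0586). Neither Ppara KO (−0.21) nor DKO (0.04) passed against WT. In the fit of gene means, which for Ugt3a2 rests on the same interval, the Ppara difference passed at 0.0469 and the Cpt2 difference at 0.0274. The former was kept in 1 of 8 fits that left out 1 library (lost at 0.0537 to 0.161) and the latter in 4 of 8 (lost at 0.0661 to 0.119). Near the same gene an H3K4me1 interval (chr15:9338258-9338629) was limited to the 4 livers with Ppara, at folds of 6.0, 5.0, 6.5 and 6.35.

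Within the Ugt2 family, whose members glucuronidate steroids, bile acids and drugs, 1 of the 10 tested intervals changed. It lies 6.6 kb outside Ugt2b35 (chr5:86993038-86995558), in no gene body. Its folds were 7.6 and 5.33 for the WT livers, 25.5 and 17.9 for Cpt2 KO, 21.7 and 18.1 for Ppara KO and 20.7 and 30.8 for DKO. Both WT livers lay below the other 6, and the 3 knockout genotypes overlapped. Against WT the interval was higher in Cpt2 KO by 1.52 (adjusted p = 0.00657), in Ppara KO by 1.65 (0.00904) and in DKO by 1.69 ± 0.27 (0.00232). The DKO call held in all 8 fits that left out 1 library. The Cpt2 KO call was lost without WT replicate 2 (0.0512) or Cpt2 KO replicate 1 (0.0712), and the Ppara KO call without WT replicate 2 (0.0628) or Ppara KO replicate 1 (0.072). Averaged over the other locus, the differences were 0.91 ± 0.19 for Ppara (0.0138; lost without Cpt2 KO replicate 2, 0.0692, Ppara KO replicate 1, 0.0669, or DKO replicate 2, 0.058) and 0.78 ± 0.19 for Cpt2 (0.0219; kept in 4 of 8, lost at 0.0584 to 0.0932). The interval over the Ugt2b35 start (chr5:86999743-87002941) had folds of 10.7 and 10.7 for the WT livers, 22 and 18.2 for Cpt2 KO, 16.1 and 13.6 for Ppara KO and 15.7 and 21.4 for DKO, with log2 differences of 0.14 for Ppara (adjusted p = 0.649) and 0.34 for Cpt2 (0.173). The other 9 tested Ugt2 intervals did not pass for either locus. Of the 10 differences, 7 were positive for Ppara (48.2% of all intervals) and 3 for Cpt2 (48.6%). At the gene level Ugt2b36 (−0.43 ± 0.19, adjusted p = 0.156) and Ugt2a3 (−0.40 ± 0.20, 0.213) had the largest negative Cpt2 differences of the 28 genes, and neither passed.

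**Figure D2:**
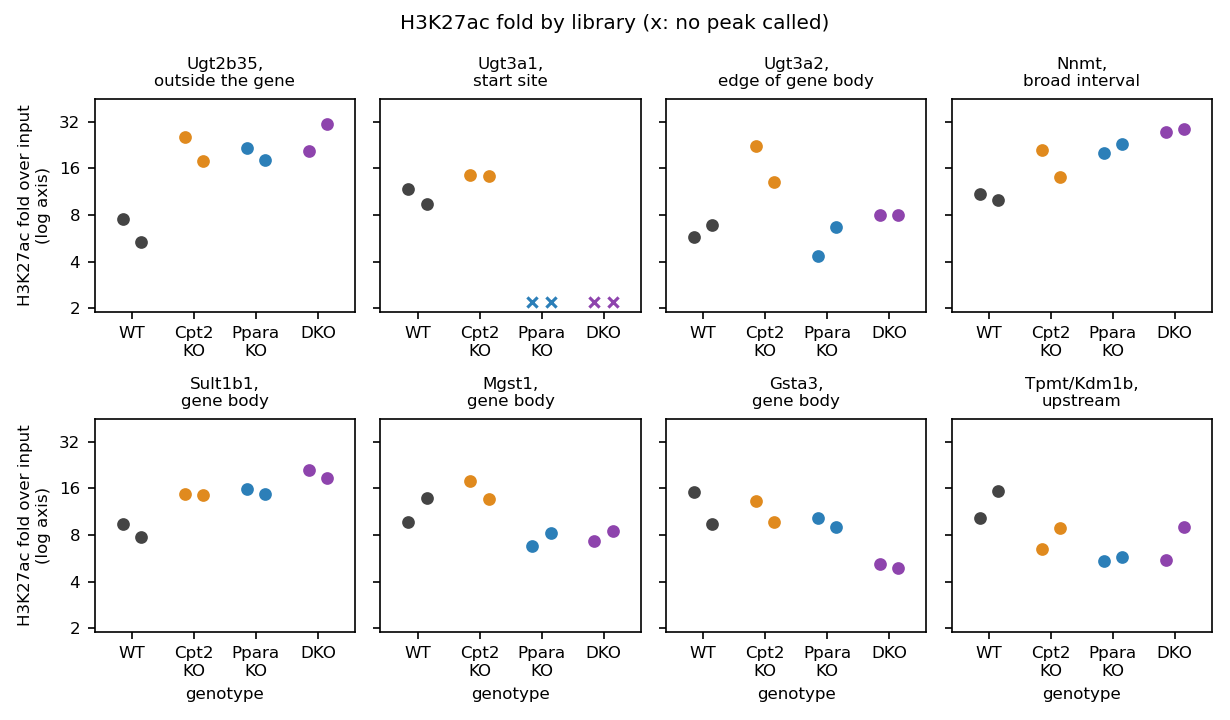
H3K27ac fold over input (log axis) at 8 named intervals, 1 point per liver, 2 livers per genotype; crosses at the bottom mark livers with no called peak. Both WT livers are lowest at the Ugt2b35 interval, the Ugt3a1 start is called only in WT and Cpt2 KO, and both DKO livers are lowest at the Gsta3 interval.

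Among the GSTs, Mgst1 was lower without Ppara. Mgst1 is the membrane-bound microsomal enzyme, which conjugates glutathione and reduces lipid peroxides. A short interval in the gene (chr6:138143931-138144423) had folds of 9.66 and 13.9 for the WT livers, 17.7 and 13.6 for Cpt2 KO, 6.82 and 8.23 for Ppara KO and 7.32 and 8.55 for DKO. All 4 Ppara-null livers lay below all 4 Ppara-intact livers, and the log2 difference was −0.83 ± 0.18 (adjusted p = 0.0131). The call was lost only without Cpt2 KO replicate 1 (−0.77, 0.0546) among 17 alternatives. DKO was lower than WT by −0.85 (0.0294), lost without WT replicate 2 (0.137), DKO replicate 1 (0.106) or DKO replicate 2 (0.103). Directly beside it, the broad interval over the printed start (chr6:138138672-138143840) had folds of 20.2 to 30.2 in all 8 livers with a Ppara difference of −0.21 (adjusted p = 0.382), and the groups overlapped. The gene mean was lower without Ppara (−0.52 ± 0.12, adjusted p = 0.0345), a call kept in 1 of 8 fits that left out 1 library (lost at 0.0706 to 0.116). In H3K4me1 an interval inside Mgst1 (chr6:138145483-138146967) reached the calling threshold only in the 4 livers without Ppara, at low folds of 4.82, 4.33, 4.74 and 4.54.

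Gsta3, an alpha-class GST, was lowest where both genes were lost. The interval inside the gene, downstream of the start (chr1:21244158-21245906), had folds of 15.2 and 9.38 for the WT livers, 13.2 and 9.72 for Cpt2 KO, 10.3 and 9.0 for Ppara KO and 5.21 and 4.90 for DKO. Both DKO livers lay below the other 6, and the 3 other genotypes overlapped. DKO was lower than WT by −1.54 ± 0.31 (adjusted p = 0.00612), in all 8 fits that left out 1 library. The Cpt2 difference over both Ppara states was −0.77 ± 0.22 (0.0379; kept in 1 of 8, lost at 0.0571 to 0.116) and the Ppara difference −0.77 (0.0517). The adjoining interval over the printed start (chr1:21239277-21244033) had folds of 13.7 to 25.7 with differences of −0.00 for Ppara and −0.07 for Cpt2 (adjusted p = 1 and 0.809). In Gsta2, a related alpha-class gene, an interval just outside the gene (chr9:78347351-78348382) had 5.55 and 6.72 for the WT livers, 15.1 and 8.30 for Cpt2 KO, 8.38 and 15.0 for Ppara KO and 12.6 and 16.0 for DKO. WT livers were the lowest, and the DKO difference of 0.92 ± 0.30 passed at 0.0471 but was lost without either WT liver or either DKO liver (0.111 to 0.177).

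The 2 pi-class genes, Gstp1 and Gstp2, lie in tandem on chromosome 19 and shared all 5 of their tested intervals. An interval beyond the 3′ end of Gstp1 (chr19:4032195-4033333) had folds of 8.22 and 6.11 for the WT livers, 4.4 and 5.38 for Cpt2 KO, 7.67 and 9.25 for Ppara KO and 5.33 and 5.10 for DKO. The 4 Cpt2-null livers lay below the 4 Cpt2-intact livers (log2 difference −0.88 ± 0.21, adjusted p = 0.019; lost without Cpt2 KO replicate 1, 0.0782, Ppara KO replicate 2, 0.0609, or DKO replicate 2, 0.0563). The next interval (chr19:4033649-4035419) had 11.1 and 13.6 for the WT livers, 10.9 and 8.63 for Cpt2 KO, 16.9 and 13.5 for Ppara KO and 11.3 and 11.2 for DKO, with a Cpt2 difference of −0.65 ± 0.17 (0.0297; kept in 2 of 8, lost at 0.052 to 0.11). On the other side of the pair the direction was opposite. The interval at chr19:4045473-4048483, upstream of Gstp2, had 7.33 and 8.09 for the WT livers, 20.8 and 10.9 for Cpt2 KO, 11.8 and 13.2 for Ppara KO and 17.4 and 25.8 for DKO. Both WT livers were lowest, and DKO was higher by 1.16 ± 0.27 (0.0115; lost without WT replicate 2, 0.0572, or DKO replicate 2, 0.0925). The interval over the Gstp1 start (chr19:4037246-4040171) had folds of 10.8 to 20.3 and did not pass for Ppara (0.35, adjusted p = 0.319) or Cpt2 (−0.21, 0.51).

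The mu-class genes, a cluster of 6 on chromosome 3, gave no call in the 6 tested intervals. All 6 Ppara differences were positive, as were 48.2% of those of all intervals. The family mean on the centred log2 scale was −0.61 ± 0.20 (SD, n = 2) for WT, −0.66 ± 0.11 for Cpt2 KO, −0.36 ± 0.05 for Ppara KO and −0.34 ± 0.31 for DKO. DKO replicate 1 (−0.56) lay among the 4 Ppara-intact livers (−0.75 to −0.46). Gstm4 (0.37 ± 0.20, adjusted p = 0.315) was the mu gene with the largest Ppara difference. In this cluster 3 intervals were called only in Ppara-null livers. That between Gstm3 and Gstm2 (chr3:107971433-107974391) had folds of 8.10 and 9.71 for Ppara KO and 8.34 and 21.1 for DKO and was not called in the 4 Ppara-intact livers. The theta-class genes (Gstt1, Gstt2 and Gstt3, 7 tested intervals) gave no call, with family means from −0.09 to 0.01 in the 4 genotypes. Gstt2 had the most negative Ppara difference of the class (−0.27 ± 0.14, adjusted p = 0.309), and Gsto1, which reduces dehydroascorbate, had −0.35 ± 0.19 (0.307). Gstz1 and Gstk1, the kappa-class enzyme of mitochondria and peroxisomes, had gene-level differences of −0.12 to −0.06 for both loci and did not pass.

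Of the 9 tested sulfotransferase intervals, 7 had a positive Ppara difference (48.2% of all intervals were positive) and 1 passed. Sult1b1, which sulfates thyroid hormones and phenols, had an interval in the gene (chr5:87531546-87533908) with folds of 9.38 and 7.77 for the WT livers, 14.6 and 14.5 for Cpt2 KO, 15.7 and 14.6 for Ppara KO and 21.1 and 18.7 for DKO. In these uncentred folds WT livers were lowest and DKO livers highest, with Cpt2 KO and Ppara KO between them. DKO was higher than WT by 0.92 ± 0.25 (adjusted p = 0.0202; lost without WT replicate 2, 0.113, or DKO replicate 1, 0.141). The Ppara difference of 0.61 ± 0.17 reached 0.0498 and was kept in 1 of 8 fits that left out 1 library (lost at 0.0676 to 0.162). The interval over the 2 Sult1b1 starts (chr5:87534839-87538597), which holds the printed run, had 10.7 and 7.5 for the WT livers, 11.7 and 10.4 for Cpt2 KO, 13.7 and 13.7 for Ppara KO and 14.7 and 15.4 for DKO. Its Ppara difference of 0.50 did not pass (0.127), although the 4 Ppara-null livers lay above the 4 others. Sult1d1, a sulfotransferase of catecholamines, had an interval outside the gene (chr5:87572167-87574689) with 8.25 and 10.3 for the WT livers, 15.6 and 11.7 for Cpt2 KO, 15.0 and 20.2 for Ppara KO and 16.0 and 16.3 for DKO. Ppara KO was higher than WT there by 0.93 (0.0321; lost without any 1 of the 4 libraries compared, 0.0571 to 0.182). Sult1a1 gave no call in 5 intervals, and its gene mean had a Ppara difference of 0.11 ± 0.11 (adjusted p = 0.616). Family means were −0.03 ± 0.16 for WT, 0.12 ± 0.03 for Cpt2 KO, 0.37 ± 0.06 for Ppara KO and 0.28 ± 0.11 for DKO (SD, n = 2 each), and 7 of 9 Ppara differences were positive.

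Of the 4 Ppara differences that passed, that of Nnmt held in the most alternatives. It methylates nicotinamide and so uses S-adenosylmethionine. A broad interval in the gene (chr9:48590197-48600441) had folds of 11 and 10.1 for the WT livers, 21.0 and 14.2 for Cpt2 KO, 20.0 and 23.0 for Ppara KO and 27.7 and 28.6 for DKO. After centring, the 4 Ppara-null livers lay above the 4 Ppara-intact livers, by 0.84 ± 0.15 (adjusted p = 0.00659), and the call held in 17 of 17 alternatives. DKO was higher than WT by 1.12 ± 0.22 (0.00498, in all 8 fits that left out 1 library) and Ppara KO by 1.04 (0.0193; lost without WT replicate 2, 0.108, Ppara KO replicate 1, 0.0968, or Ppara KO replicate 2, 0.0975). A second Nnmt interval (chr9:48585197-48588351) had 6.5 and 5.5 for the WT livers, 21.8 and 14.5 for Cpt2 KO, 9.0 and 7.5 for Ppara KO and 9.81 and 11.3 for DKO. Cpt2 KO livers were the highest and WT livers the lowest, and Cpt2 KO was higher than WT by 1.35 (0.0107; lost without WT replicate 2, 0.0748, or Cpt2 KO replicate 1, 0.119). Over both Ppara states its Cpt2 difference was 0.70 ± 0.20 (0.0351; kept in 2 of 8, lost at 0.0523 to 0.15). An interval between the broad ones (chr9:48600540-48602407) had a peak only where Ppara was missing, at 9.21 and 6.83 for Ppara KO and 11.6 and 9.57 for DKO. Beyond the gene body (chr9:48616538-48616838) an interval was called only in the Cpt2-intact livers, with 10.3 and 8.65 in WT and 6.71 and 6.58 in Ppara KO. The strongest interval (chr9:48602510-48608086) had folds of 26.5 to 40.5 and did not pass.

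An interval beside the start of Tpmt, the thiopurine methyltransferase, had lower H3K27ac in each knockout. The interval (chr13:47043479-47044832) lies next to the printed Tpmt run and inside the neighbouring gene Kdm1b, so it cannot be given to either gene. Its folds were 10.3 and 15.5 for the WT livers, 6.46 and 8.91 for Cpt2 KO, 5.45 and 5.80 for Ppara KO and 5.48 and 8.97 for DKO. Both WT livers lay above the other 6. Against WT the log2 differences were −0.96 in Cpt2 KO (adjusted p = 0.0484), −1.15 in Ppara KO (0.0374) and −1.14 ± 0.30 in DKO (0.0181). The Cpt2 KO call was lost without centring, with quantile normalization, with the width covariate and with uncalled peaks filled. The Tpmt gene mean did not pass against WT in Cpt2 KO (−0.59, adjusted p = 0.0955 by limma), Ppara KO (−0.45, 0.217) or DKO (−0.59, 0.0758). The Ppara KO call was lost without WT replicate 2 (0.211), Ppara KO replicate 1 (0.136) or Ppara KO replicate 2 (0.15), the DKO call without WT replicate 2 (0.114) or DKO replicate 1 (0.125), and the Cpt2 KO call in 6 of 8 such fits (0.0539 to 0.347). H3K4me1 inside Tpmt (chr13:47030248-47030937) had a peak only in the 4 livers without Ppara, at 6.92, 8.13, 8.52 and 12.2. On the Kdm1b side, H3K4me1 at chr13:47048590-47050845 had one only in the 4 livers with Ppara, at 9.6, 8.52, 6.13 and 7.73.

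Counted over the 56 tested H3K27ac intervals, calls were few in each contrast and read as follows against all 18281 intervals. For Ppara-null against Ppara-intact, 3 were higher and 1 lower (all intervals: 3.19% higher and 4.15% lower). For Cpt2-null against Cpt2-intact, 3 were higher and 3 lower (4.9% and 7.38%). Against WT, Ppara KO had 3 higher and 1 lower (2.83% and 3.59%), Cpt2 KO 3 higher and 1 lower (5.82% and 7.69%), and DKO 5 higher and 3 lower (8.62% and 11.5%). These comparisons share their WT libraries. Without centring, the splits were 2 higher and 2 lower for Ppara, 8 and 1 for Cpt2, 2 and 1 for Ppara KO, 5 and 0 for Cpt2 KO and 9 and 1 for DKO. Over all 18281 intervals these splits were 548 and 550, 3504 and 432, 369 and 461, 1961 and 576, and 3155 and 860, in the same order. With the smallest peak width as a covariate, only the Ppara differences of the Nnmt and Mgst1 intervals passed, and no interval passed in the other 4 contrasts. With 56 intervals tested, shares of this size are near the background and give no result about the genes as a set. Without adjustment, p by limma was under 0.05 for 13 of the 56 intervals in the Ppara and 13 in the Cpt2 comparison. Over all 18281 intervals it was under 0.05 for 4226 and 5498. None of the 56 intervals passed for an interaction of the 2 losses (smallest adjusted p = 0.132 by limma), and 0.00547% of all intervals passed. Unadjusted p was under 0.05 for 10 of the 56 and for 2771 of all 18281 intervals.

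The centre of the Ppara differences lay above that of all intervals, as did that of the 6 hepatocyte markers above. The median log2 difference was 0.14 over the 56 intervals and −0.01 over all intervals, and 38 of 56 (67.9%) were positive against 48.2%. For Ppara KO against WT the median was 0.26 against −0.03, with 40 of 56 (71.4%) positive against 47.6%. Without WT replicate 2 these medians were 0.09 (33 of 56 positive) and 0.12 (37 of 56). For the Cpt2 comparison the median was −0.07 against −0.01, with 21 of 56 (37.5%) positive against 48.6%. Without centring the Cpt2 median was 0.20 with 44 of 56 positive, against 0.25 over all intervals. Cpt2 KO and DKO against WT both had medians of 0.05, which were −0.06 and −0.01 without WT replicate 2 and 0.28 and 0.35 without centring (0.19 and 0.26 over all intervals). After centring, 8 of 56 intervals had no overlap between the Ppara states (8.2% of all intervals) and 4 of 56 between the Cpt2 states (13.2%). Neighbouring intervals and paralogs share reads and position, so these shares are a description.

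**Figure D3:**
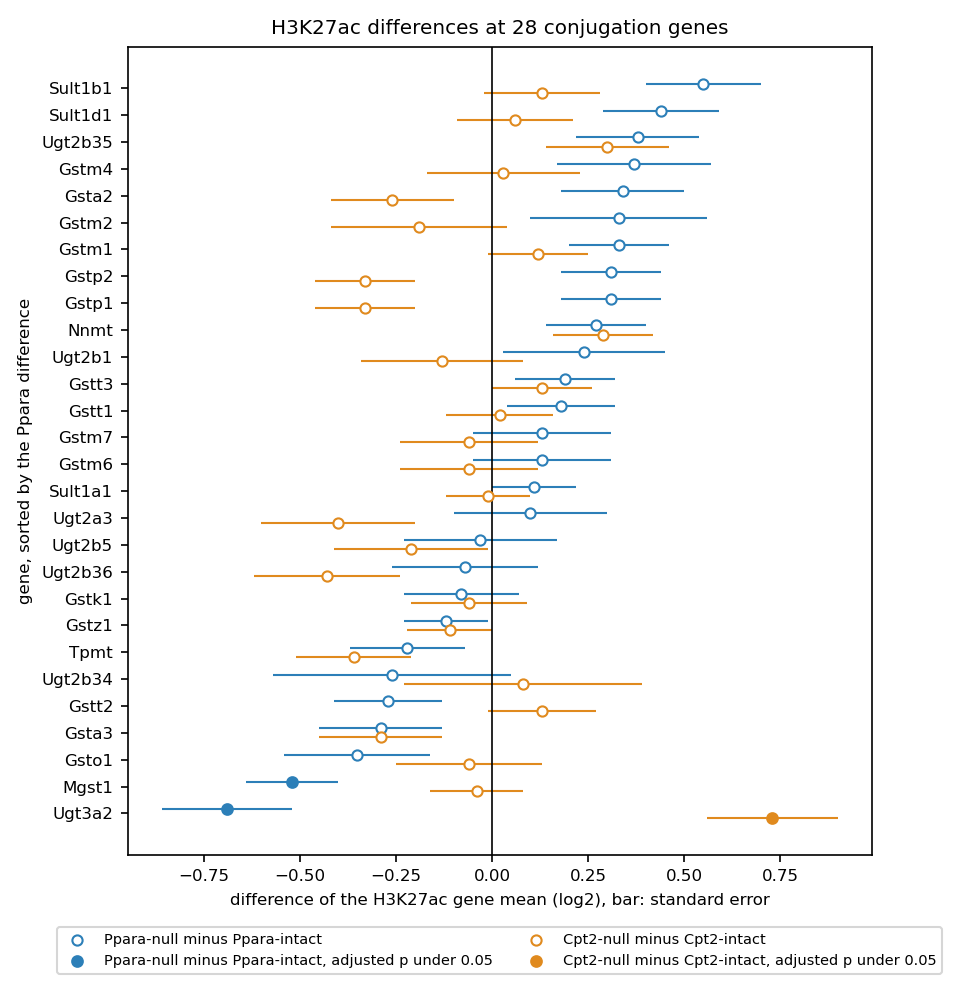
Difference of the H3K27ac gene mean (log2, bars are standard errors) at the 28 tested conjugation genes, sorted by the Ppara difference; filled points passed the adjusted p threshold of 0.05. Ugt3a2 and Mgst1 are the filled points to the left for Ppara, Ugt3a2 is the only filled point for Cpt2, and Sult1b1 heads the unfilled points to the right.

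At the level of gene means, 0 genes were higher and 2 lower without Ppara, Ugt3a2 and Mgst1 (1.25% and 3.64% of 11264 genes). Without Cpt2, 1 was higher and 0 lower, Ugt3a2 (4.15% and 5.42%). Against WT, Ugt3a2 did not pass in Ppara KO (−0.21 ± 0.25, adjusted p = 0.64 by limma) or DKO (0.04 ± 0.25, 0.928). It was higher in Cpt2 KO (1.20 ± 0.25, 0.0167), which is 1 of the 2 Ppara-intact genotypes. The largest positive Ppara differences were those of Sult1b1 (0.55 ± 0.15, adjusted p = 0.0567), Sult1d1 (0.44 ± 0.15, 0.105), Ugt2b35 (0.38 ± 0.16, 0.205), Gstm4 and Gsta2 (0.34 ± 0.16, 0.236). After Ugt3a2, the largest positive Cpt2 differences were those of Ugt2b35 (0.30), Nnmt (0.29), Gstt2 (0.13) and Gstt3 (0.13), and after Ugt2b36 and Ugt2a3 the largest negative ones were those of Tpmt (−0.36 ± 0.15, 0.127) and Gstp1 with Gstp2 (−0.33 ± 0.13, 0.112). None of these passed.

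In any of the 5 contrasts 13 distinct intervals passed, 6 of them with a midpoint inside a conjugation gene and 7 outside. Ugt3a2 and Nnmt have no entry among the RefSeq starts used, so 3 of the 13 could not be scored for holding one. One of these, the Ugt3a2 interval, covers the edge of its gene body at 9335551. The other 10 held no RefSeq start. Of the tested intervals, 19 held a start and none of these passed, with Ppara differences of −0.35 to 0.50 and Cpt2 differences of −0.51 to 0.34. Over all intervals, 23.8% of those that hold a start and 31% of those that do not passed in at least 1 of the 5 contrasts. Among the 19, the Ppara states did not overlap after centring at Sult1b1 and at Sult1a1 (chr7:126674071-126681368, log2 difference 0.25). The Ugt3a1 start, with its missing calls, was not among the tested intervals.

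Intervals called in at least 3 of 4 livers of one state and in none of the other were also counted. In H3K27ac, 1 of 173 was called only with Ppara present, the Ugt3a1 start (1.73% of all intervals), and 5 of 173 only with Ppara absent (1.63%). The 5 were the Nnmt and Gstm2/Gstm3 intervals above and weaker ones at Gstm6/Gstm7, Gstm1/Gstm4 and Ugt2b1. With Cpt2 present 8 of 173 were called only there (2.49%), of which those of Gstt1, Sult1a1 and Nnmt in all 4 livers, and with Cpt2 absent 0 (4.5%). The Cpt2 states also differ in smallest peak width, and the part of the width in these calls was not tested. In H3K4me1, 9 of 241 were called only with Ppara present (2.84%), 4 of them near Ugt3a1, and 11 only with Ppara absent (1.96%), mostly in the Gstm and Ugt2b clusters; 5 of the 9 and 3 of the 11 also separated the narrow from the wide libraries. The Cpt2 counts were 5 present only (1.3%) and 1 absent only (1.41%). By library width, 19 of 241 were called only in the narrow 4 (7.83%) and 25 only in the wide 4 (7%), more than by either genotype.

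**Figure D4:**
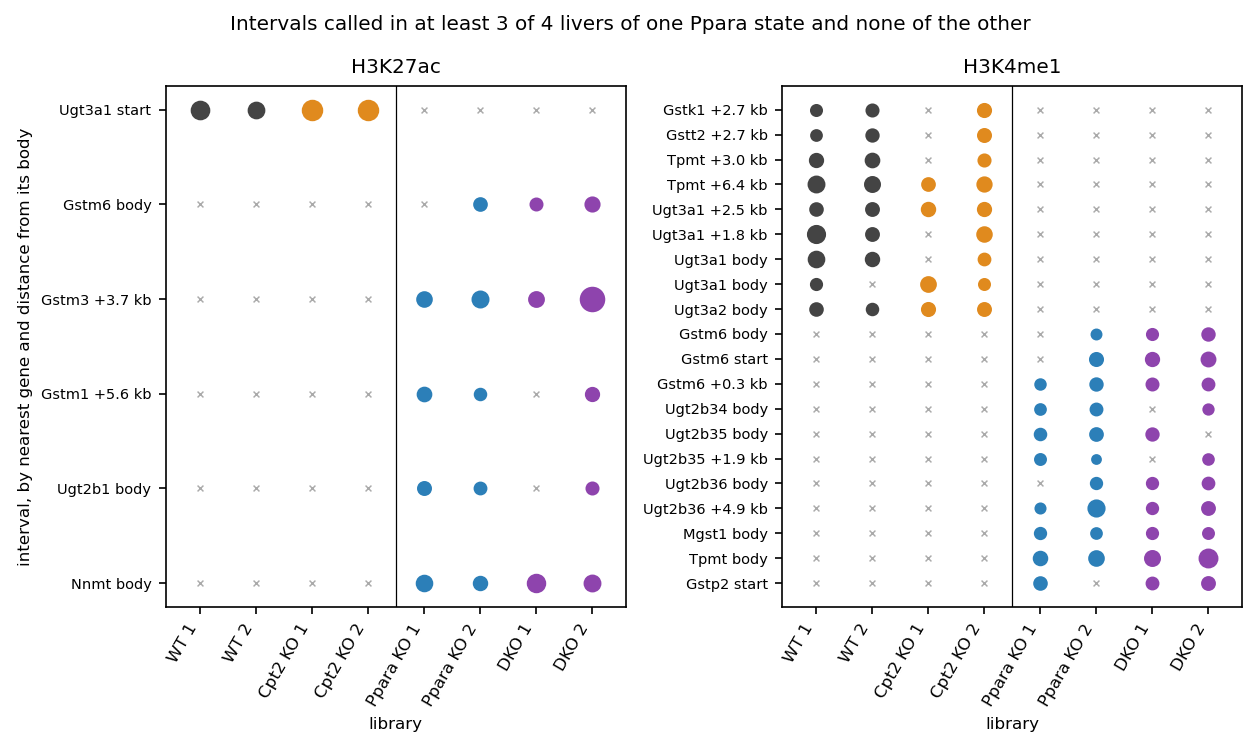
Intervals (rows, named by the nearest conjugation gene and the distance from its body) called in at least 3 of 4 livers of one Ppara state and none of the other, per liver (columns); dot area grows with the fold and grey crosses mark uncalled livers. Ugt3a1 accounts for the H3K27ac interval and 4 of the 9 H3K4me1 intervals called only with Ppara, and the Gstm and Ugt2b clusters for most of those called only without it.

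H3K4me1 levels gave no call. Of the 59 tested intervals (23 genes), 0 passed for Ppara, Cpt2 or DKO against WT by limma, with unadjusted p under 0.05 for 10, 10 and 17 of them. Over all 19526 intervals 0.128%, 0% and 0.133% passed. The share of all intervals with unadjusted p under 0.05 is not given here, so the unadjusted counts are not read as an excess. Medians were 0.06 for Ppara (33 of 59 positive) and 0.02 for Cpt2. The largest gene difference for Ppara was at Sult1b1 (−0.61 ± 0.24, adjusted p = 0.37), the opposite sign to its H3K27ac. Its interval (chr5:87536271-87538569) had folds of 12.4 and 9.62 for the WT livers, 7.56 and 9.72 for Cpt2 KO, 12.5 and 5.5 for Ppara KO and 4.44 and 5.29 for DKO, and the Ppara KO livers differed from each other more than those of any other genotype. The same gene also led for Cpt2 (−0.56, 0.641). Gstm3 (0.35 ± 0.12, 0.33) had an interval over its start (chr3:107966348-107972215) with 8.49 and 7.53 for the WT livers, 8.90 and 6.33 for Cpt2 KO, 9.21 and 10.8 for Ppara KO and 10.3 and 14.5 for DKO, so that all Ppara-null livers lay above the rest. Nnmt (0.32 ± 0.18, 0.491) had an interval outside the gene (chr9:48611924-48612746) with 6.2 and 4.46 for the WT livers, 12.8 and 3.92 for Cpt2 KO, 8.81 and 12.9 for Ppara KO and 11.4 and 8.85 for DKO, where the 2 Cpt2 KO livers differed most. For Cpt2, Tpmt (−0.40, 0.592) and Gstm6 with Gstm7 (−0.33, 0.641) followed Sult1b1. The Tpmt interval (chr13:47043906-47045044), inside Kdm1b and overlapping the H3K27ac interval above, had 12.3 and 10.4 for the WT livers, 5.5 and 8.0 for Cpt2 KO, 10.8 and 6.69 for Ppara KO and 6.04 and 7.37 for DKO, with one Ppara KO liver among the WT values.

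H3K9ac was compared without replicates, as positions only, in 1 WT and 1 Cpt2 KO liver, and has no test. Of 124 intervals at the conjugation genes, 68 (54.8%) were present in both livers, 51 (41.1%) in WT only and 5 (4.03%) in Cpt2 KO only. Of all 46568 intervals the shares were 55.2%, 20.8% and 23.9%, so among intervals present in 1 liver those of the conjugation genes lay mostly on the WT side. The 2 libraries covered 37.5 Mb and 37.4 Mb in all. At Nnmt, 13 consensus intervals were present in WT and 2 in Cpt2 KO, and the covered length was 15.9 kb against 0.8 kb. The tested H3K27ac interval chr9:48585197-48588351 of the same gene was higher, not lower, in Cpt2 KO. At Gsta3, 10 intervals were present in WT and 4 in Cpt2 KO (9.9 and 5.2 kb), at Gstt1 13 and 5 (8.0 and 3.5 kb) and at Ugt2a3 4 and 1 (4.3 and 0.3 kb). Sult1b1 had 3 and 0, and the Sult1d1 start lay in an interval in WT only. Gstp1 and Gstp2 had 8 and 10 (6.0 and 6.2 kb), so not every gene had fewer in Cpt2 KO. Ugt2b37, Ugt2b38, Gstm3 and Gstm7 had none. Whether these counts reflect the genotype or the single library cannot be told apart.

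**Figure D5:**
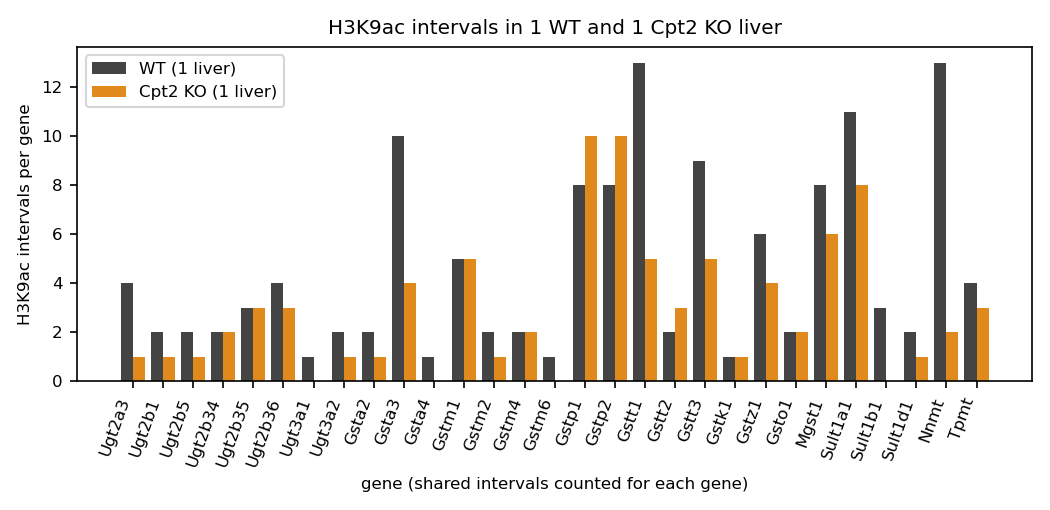
Number of H3K9ac consensus intervals per conjugation gene (bars) in 1 WT and 1 Cpt2 KO liver, without replicates; intervals shared by paralogs are counted for each, and the 4 genes with none are left out. Nnmt, Gstt1 and Gsta3 have more than 5 intervals fewer in Cpt2 KO, and Gstp1, Gstp2 and Gstt2 have more.

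Genes that supply or remove what the conjugating enzymes use were read as gene means of H3K27ac. For glutathione supply, 1 of 8 tested genes passed for Cpt2 and 0 for Ppara. Cbs, which makes cystathionine for cysteine synthesis, was lower without Cpt2 (−0.45 ± 0.12, adjusted p = 0.0447). Gclc and Gclm, the subunits of the rate-limiting enzyme of glutathione synthesis, had −0.32 (0.112) and −0.15 (0.438). For the glucuronate donor, 1 of 4 passed for each locus. Slc35d1, which carries UDP-glucuronic acid into the endoplasmic reticulum, was lower without Ppara (−0.51 ± 0.13, 0.0496) and without Cpt2 (−0.56 ± 0.13, 0.0266). No gene of the sulfate donor (0 of 3) or methyl donor (0 of 4) lists passed for either locus. Of 4 export pumps, 1 passed, for Cpt2 only: Abcc4 was higher (0.57 ± 0.12, 0.0191). Among 6 other conjugating enzymes, 1 passed, for Ppara: Sult2a8, a bile acid sulfotransferase, was lower without Ppara (−1.20 ± 0.15, 0.00267). Among the regulators, none passed for Ppara. Nr1i3, which encodes the receptor Car, was higher without Cpt2 (0.43 ± 0.11, 0.0307). Nfe2l2, which encodes Nrf2, had 0.42 ± 0.13 (0.0662). Of 5 tested Ppara reference genes, Cyp4a10 (−1.67 ± 0.16, 0.000379) and Acaa1b (−1.09 ± 0.13, 0.00196) were lower without Ppara, both by more than any of the 28 conjugation genes. No gene of these lists passed in H3K4me1.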

How the data were processed

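H3K27ac and H3K4me1 ChIP-seq peak lists of 16 mouse liver libraries, 2 livers in each of 4 genotypes and 2 marks, were used with H3K9ac intervals of 2 libraries. Per the submitters' processing notes, reads were aligned to mm10 with BWA and peaks were called with MACS2 2.1.0. The authors deposited 1 list per library with a fold over input (pooled, per the labels), which is a linear ratio, and −log10 q for each peak. The depth in reads is unknown. 1 H3K27ac library (Ppara KO replicate 2) carries another build word in its peak names and was used as mm10. The deposited tables held 0 columns that could not be mapped.

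Peaks of all libraries of a mark were merged into consensus intervals, and each took the highest fold of an overlapping peak (at least 1 base). Intervals called in all 8 libraries were tested on log2 fold, centred on the library median, with limma 3.58.1 in R 4.3.3 (1 mean per genotype, moderated variance with trend, Benjamini-Hochberg adjustment over all intervals, or over all genes for gene means). Replicates are separate livers by the animal numbers in the peak names, so p-values measure the spread between these animals. They do not separate the Ppara state from the series of animal numbers that goes with it. The procedure was tested on simulated data. Gene bodies and promoter sequences came from RefSeq tables of GRCm38.p6.

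The members and gene lists were chosen with earlier results of these data known. Named are, per contrast, the 5 genes with the largest H3K27ac gene-mean difference in each direction, the 3 with the largest in H3K4me1, the interval of each with the largest difference, intervals called in at least 3 of 4 libraries of one state and 0 of the other, the strongest WT interval of each family, and intervals that passed. Leaving out each library, a replicate block, no centring, quantile normalization, no variance trend, a peak-width covariate, filling uncalled peaks, stricter q, overlap weighting and a gene-body rule were tried as alternatives. Input libraries were not used further. Results for some listed items are not reported here.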

Additional observations from a re-analysis of the deposited data

How the results depend on the processing

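Of the 17 alternatives, the smallest peak width as a covariate lowered the interval counts to 2 (1 higher, 1 lower) for Ppara and 0 for Cpt2 and for each knockout against WT, with 0 genes for either locus. In H3K27ac, width coincides with the Cpt2 state, so they cannot be told apart. The covariate reversed the Cpt2 gene differences of Ugt2b35 (−0.10), Nnmt (−0.04) and Gstt3 (−0.06), none of which had passed. Filling uncalled peaks at the lowest fold gave 12 for Ppara, 12 for Cpt2, 10 for Ppara KO, 9 for Cpt2 KO, 16 for DKO and 6 Ppara genes, over more intervals. Counting only midpoints inside gene bodies left 35 tested intervals. It gave 3 for Cpt2, 1 for Ppara KO, 2 for Cpt2 KO, 4 for DKO and 1 Ppara gene. Without centring, Cpt2 had 9 intervals and 3 genes, Ppara KO 3, Cpt2 KO 5, DKO 10 and Ppara genes 0, with the median of all intervals shifted by 0.25 (Cpt2), 0.19 (Cpt2 KO) and 0.26 (DKO). Overlap weighting gave 1 Ppara gene, and −log10 q of at least 10 gave 2 Cpt2 genes.

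Leaving out each library in turn gave 2 to 5 intervals for Ppara, 1 to 5 for Cpt2, 0 to 7 for Ppara KO, 0 to 4 for Cpt2 KO, 3 to 8 for DKO and 0 to 0 for the interaction. H3K4me1 gave 0 to 2 for Ppara, 0 to 0 for Cpt2 and 0 to 4 for DKO, and gene means 0 to 3 for Ppara and 0 to 1 for Cpt2. Ppara fell to 2 without Cpt2 KO replicate 2, Ppara KO replicate 1 or DKO replicate 2, and Cpt2 to 1 without Cpt2 KO replicate 1 or DKO replicate 2, 2 without WT replicate 2 or either Ppara KO liver and 3 without DKO replicate 1. Ppara KO fell to 0 without WT replicate 2 or Ppara KO replicate 1 and to 1 without Ppara KO replicate 2, and rose to 7 without WT replicate 1. Cpt2 KO fell to 0 without WT replicate 2 or Cpt2 KO replicate 1, and DKO to 3 without WT replicate 2 and to 5 without either DKO liver. The H3K4me1 calls appeared without Cpt2 KO replicate 1 (2 for Ppara, 4 for DKO) or Cpt2 KO replicate 2 (4 for DKO). Ppara genes fell to 0 without WT replicate 2, Cpt2 KO replicate 1, either Ppara KO liver or either DKO liver and to 1 without Cpt2 KO replicate 2, and Cpt2 genes to 0 without Cpt2 KO replicate 1, Ppara KO replicate 1 or either DKO liver.

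The replicate numbers come only from the titles, and were not taken as pairs. Deviations of replicate 1 from its genotype mean correlated between genotypes at −0.065 to 0.172 in H3K27ac and −0.489 to 0.101 in H3K4me1. With a replicate block the counts were 6 for Ppara, 6 for Cpt2, 5 for Ppara KO, 4 for Cpt2 KO, 8 for DKO and 0 in each H3K4me1 contrast, with 2 Ppara genes and 1 Cpt2 gene. The block moved the adjusted p of Gsta2 in DKO to 0.0519, of the Ugt3a2 gene mean for Ppara to 0.0527 and of the Sult1b1 gene mean for Ppara to 0.0379. The cause of these changes was not tested. In fits that left out 1 library, the counts over all H3K27ac intervals moved as well. The counts in these alternatives therefore give no result about the conjugation genes as a set. With 2 livers per genotype and fold over input only, small differences are not detectable at this precision.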
